A study of Mus musculus with 4 samples.

Results

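The chaperonins are the barrel-shaped folding machines of the cell, and their transcripts were followed here in mouse atrial muscle cells after a day of rapid electrical pacing. The members were every probe set annotated to exactly 1 of 10 symbols, namely Tcp1, Cct2, Cct3, Cct4, Cct5, Cct6a, Cct7 and Cct8 of the cytosolic CCT complex and Hspd1 and Hspe1 of the mitochondrial pair. This rule found 28 of the 45037 non-control probe sets on the array, for 10 of 18193 genes. The cells were HL-1, an immortalised line derived from mouse atrial muscle that keeps beating in culture. The stimulated group was 2 samples paced at 300 beats per minute for 24 h, given as about 1.5 to 2 times the control rate. The control group was 2 samples that beat on their own without stimulation. Both groups were grown to confluence in the same supplemented medium on coated coverslips, and each sample was hybridised to 1 Affymetrix array. No group was paced at the control rate, so the faster rate and the stimulation itself cannot be told apart. The labels number the stimulated samples as experiments 1 and 2, but do not say whether the control samples came from separate cultures, so the spread behind the p-values may be partly technical.

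CCT, also called TRiC, is built of paired rings that each hold 8 different subunits. Newly made actin, tubulin and many WD-repeat proteins fold in its cavity with the help of ATP. In the mitochondrial matrix the same task falls to HSP60, the product of Hspd1, which forms a barrel that is capped by a lid of HSP10, the product of Hspe1. In heart muscle the cytosolic machine serves the sarcomere and the cytoskeleton, and the mitochondrial one serves enzymes imported into the abundant mitochondria. In mammals Hspd1 and Hspe1 lie head to head and share a promoter that responds to heat shock factor 1.

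Values are log2 signals made with RMA, which corrects, normalizes and summarises the probes of each set. Each gene was represented by its brightest probe set, and genes with a mean at or above 4.39, the 40th percentile of the probe sets, were tested with limma. A gene is said to have risen or fallen only if its Benjamini-Hochberg adjusted p over the 13058 genes tested was under 0.05. A change is the stimulated mean less the control mean in log2 units, given ± its fitted standard error. Of the markers of the labelled cell type, 12 of 12 atrial muscle genes lay at or above the filter level on all 4 arrays. Of these 11 had a lower mean on the stimulated arrays (median change -0.43). Gja5, connexin 40, fell by 2.40 ± 0.30 and Ryr2, the cardiac calcium release channel, fell by 0.85 ± 0.16, while Nppa, the atrial natriuretic peptide gene, rose by 2.00 ± 0.14 (adjusted p of 0.0228, 0.0419 and 0.00561). Gja5 read 4.52 and 5.09 on the stimulated arrays, near the filter level, so the size of its fall is uncertain. Summed over all 12 genes on the linear scale, Nppa included, the signal was 54369 to 64625 on the stimulated arrays and 67328 to 67620 on the control arrays. Of the markers of other cells, 3 of 7 fibroblast, 1 of 6 endothelial, 4 of 5 smooth muscle and 1 of 5 leukocyte genes lay at or above that level on all arrays. Their summed signals were 145.4 to 238.7 for fibroblast genes on the stimulated arrays and 152.6 to 296.8 on the control arrays. The endothelial sums were 113.04 to 116.02 on the stimulated arrays and 118.2 to 130.8 on the control arrays. The smooth muscle sums were 3135 to 5959 on the stimulated arrays and 4097 to 6687 on the control arrays. The leukocyte sums were 210.8 to 220.3 on the stimulated arrays and 138.2 to 162.1 on the control arrays. Most of the leukocyte difference came from Cd68, a lysosomal protein gene, which rose with a fitted change of 2.08 ± 0.23 (adjusted p = 0.0187). The control mean of Cd68 lay just below the filter level, and the gene was tested because of its stimulated values. Its fitted change is thus not a measured fold. Ptprc, the common leukocyte antigen, lay between 3.04 and 3.51 on the 4 arrays, below the filter level. The part of these markers in the changes of the chaperonins was not tested.

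All 10 chaperonin genes passed the filter and all 10 had a higher mean on the stimulated arrays, as did 49.1% of all genes tested, but only Hspe1 rose. The median change of the 10 was 0.44, against -0.01 over all genes tested. In 9 of the 10 both stimulated arrays lay above both control arrays, Tcp1 being the exception. The same held for 27.6% of all genes tested. The count that rose, 1 of 10, compares with 3.91% of all genes tested, and 0 of 10 fell, against 1.62%. At an unadjusted p under 0.05, 7 of the 10 were higher, against 13.9% of all genes tested. Among the 295 genes whose mean level lay in the members' range of 11.60 to 12.89, the median change was -0.08, 42.0% had a change above 0, and both stimulated arrays lay above both control arrays in 32.9%. In these bulk cultures more cells with a transcript and more of it per cell cannot be told apart.

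**Figure D1:**
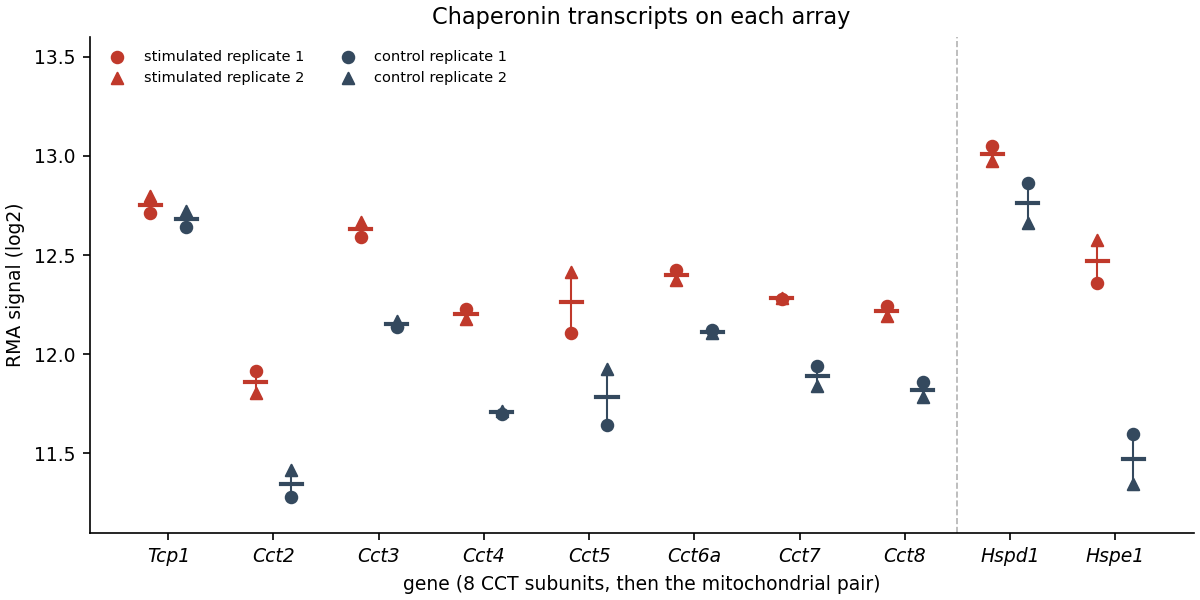
RMA signal (log2, y axis, not starting at 0) of each chaperonin gene (x axis) on the 2 stimulated arrays (red) and the 2 control arrays (dark), with replicate 1 as a circle, replicate 2 as a triangle and the group mean as a bar. The stimulated arrays lie above the control arrays for 9 of the 10 genes, and for Tcp1 the groups overlap.

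The subunits of CCT come first. Cct2 encodes the beta subunit. Its signal was 11.92 and 11.80 on the stimulated arrays, against 11.28 and 11.42 on the control arrays. The groups were well apart, and the change was 0.51 ± 0.13 (1.43-fold, adjusted p = 0.0751). Cct3, for the gamma subunit, stood at 12.59 and 12.67 on the stimulated arrays, against 12.14 and 12.17 on the control arrays. Both stimulated arrays were higher by more than the gap within either group, and the change was 0.48 ± 0.12 (adjusted p = 0.0754). Cct4, the delta subunit gene, read 12.23 and 12.18 on the stimulated arrays, against 11.70 and 11.72 on the control arrays. Its replicates lay closer together than those of Cct2, and the change was 0.50 ± 0.12 (adjusted p = 0.0692). These 3 changes missed the threshold with the variance prior used. Each passed in only 1 of the 12 alternatives run, in which the prior was allowed to follow the signal level. The adjusted p was then 0.0467 for Cct2, 0.0371 for Cct3 and 0.0361 for Cct4. In the other 11 alternatives none of the 3 passed.

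Cct5, which encodes the epsilon subunit, varied most within the groups. It read 12.11 and 12.41 on the stimulated arrays, against 11.64 and 11.92 on the control arrays, so that the lower stimulated array was near the higher control array. The change was 0.48 ± 0.17 (adjusted p = 0.149), and it was 0.33 without stimulated replicate 2 and 0.63 without stimulated replicate 1. For Cct7, the eta subunit gene, both stimulated arrays read 12.28, against 11.94 and 11.84 on the control arrays (change 0.39 ± 0.12, adjusted p = 0.113). Cct8, for the theta subunit, read 12.24 and 12.19 on the stimulated arrays, against 11.86 and 11.78 on the control arrays (change 0.40 ± 0.12, adjusted p = 0.111). Neither gene had overlapping groups, and their changes were of nearly equal size. Cct6a, the zeta subunit gene, differed less, with 12.43 and 12.37 on the stimulated arrays, against 12.12 and 12.11 on the control arrays. Its replicates agreed closely, but its change of 0.29 ± 0.12 had an interval from -0.01 to 0.58 (95%, adjusted p = 0.205).

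Tcp1 encodes the alpha subunit, the founding member of the family. Its signal was 12.71 and 12.80 on the stimulated arrays, against 12.64 and 12.72 on the control arrays. Here the groups overlapped, and the change was 0.07 ± 0.12, with a 95% interval from -0.23 to 0.37 (adjusted p = 0.778). This interval does not show that Tcp1 stayed level, and it overlaps that of Cct2, 0.20 to 0.83. The difference between Tcp1 and the other subunits was not tested. Over the 8 CCT genes the median change was 0.44, and the level of the 8, taken as their median on each array, was 12.26 and 12.33 on the stimulated arrays, against 11.90 and 11.88 on the control arrays.

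The mitochondrial lid and barrel genes lay apart in size. Hspe1, for HSP10, read 12.36 and 12.58 on the stimulated arrays, against 11.60 and 11.35 on the control arrays. Both stimulated arrays were far above both control arrays, and Hspe1 rose by 1.00 ± 0.15, or 2.00-fold (adjusted p = 0.0300). Hspd1, for HSP60, read 13.05 and 12.97 on the stimulated arrays, against 12.86 and 12.66 on the control arrays. The groups did not overlap, but they were close, and the change was 0.25 ± 0.13 (95% interval -0.08 to 0.58, adjusted p = 0.308). Within each array the Hspe1 signal minus the Hspd1 signal was -0.69 and -0.40 in stimulated cells, against -1.27 and -1.32 in control cells. That difference was thus 0.75 higher in stimulated cells, which is a description and was not tested. All of these signals, those of Hspd1 above all, lay in the upper part of the range of 2.34 to 14.29, where RMA can understate a change. Whether it did so here was not tested.

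The call of Hspe1 needed all 4 arrays. With 1 array left out its change was 1.11 without stimulated replicate 1 (adjusted p = 0.0976), 0.89 without stimulated replicate 2 (adjusted p = 0.0808), 1.12 without control replicate 1 (adjusted p = 0.114) and 0.87 without control replicate 2 (adjusted p = 0.170). The direction was the same each time, and the number of genes called over the whole array fell to between 20 and 113 in these fits.

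The upstream bases that the mitochondrial pair share are shown because a long run of heat shock units lies in them, between the start of Hspe1 and the inner start of Hspd1. RefSeq (mouse build GRCm38.p6) gives 1 start for Hspe1, on the plus strand, and 2 starts for Hspd1, on the minus strand. The region below, chr1:55087933-55088147 on the plus strand, runs from the base after the inner Hspd1 start to the base before the Hspe1 start. Below it stand the 30 bases around each 8-base pair of heat shock units in a CCT promoter window, for comparison. They are Cct5 at chr15:31601862-31601891 and Cct2 at chr10:117063399-117063428, both read on the minus strand, and Cct6a at chr5:129787369-129787398 on the plus strand. The pair begins 34 bases upstream of a Cct5 start and 42 bases upstream of a Cct2 start, and at base 25 counted from the Cct6a start. Cct2 has a second start at chr10:117063852, and its pair of units lies downstream of that one. All are printed 5′ to 3′, and capitals mark the heat shock units.
Hspe1 and Hspd1: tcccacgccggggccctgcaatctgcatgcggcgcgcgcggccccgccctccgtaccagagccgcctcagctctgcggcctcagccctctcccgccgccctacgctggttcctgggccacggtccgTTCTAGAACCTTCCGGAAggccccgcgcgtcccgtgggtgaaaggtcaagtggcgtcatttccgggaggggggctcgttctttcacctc
Cct5: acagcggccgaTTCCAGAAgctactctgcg
Cct2: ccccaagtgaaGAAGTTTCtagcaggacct
Cct6a: gcgtaagacttTTCGAGAAgaccccgcaga

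Heat shock factor 1 binds as a trimer to short units of GAA and its reverse, TTC, placed head to head with 2 bases between them. In the window of 300 bases around each start (250 before it and 50 from it on), 2 such units were searched as GAANNTTC or TTCNNGAA, where N is any base. Each of these forms reads the same on both strands, and longer runs contain the shorter ones. The search covered 12 windows of 9 of the 10 genes, and Cct4 was not matched. A pair of units stood in 5 of the 12 windows, 1 each of Cct2, Cct5, Cct6a, Hspd1 and Hspe1, and in 15.1% of all 32851 windows. The Hspd1 and Hspe1 windows share the same units. Runs of 3 units (GAANNTTCNNGAA or TTCNNGAANNTTC) stood in 0.603% of all windows and, of the 9 genes, in those of Hspe1 and Hspd1. Runs of 4 units (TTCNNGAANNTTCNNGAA or GAANNTTCNNGAANNTTC) stood in 8 windows in all, or 0.0244%, of which 2 were those of Hspe1 and Hspd1. It is the same run of 18 bases in both, at chr1:55088059-55088076. Its first base lay 89 bases upstream of the Hspe1 start, and on the other strand 144 bases upstream of the inner Hspd1 start. The outer Hspd1 start lies on the other side, so that the run is 167 bases downstream of it. The core of the amino acid response element, searched as TGATGNAA or TTNCATCA, stood in none of the 12 windows and in 3.97% of all windows. These matches describe the letters in the window, and the data do not show which factor bound there.

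**Figure D2:**
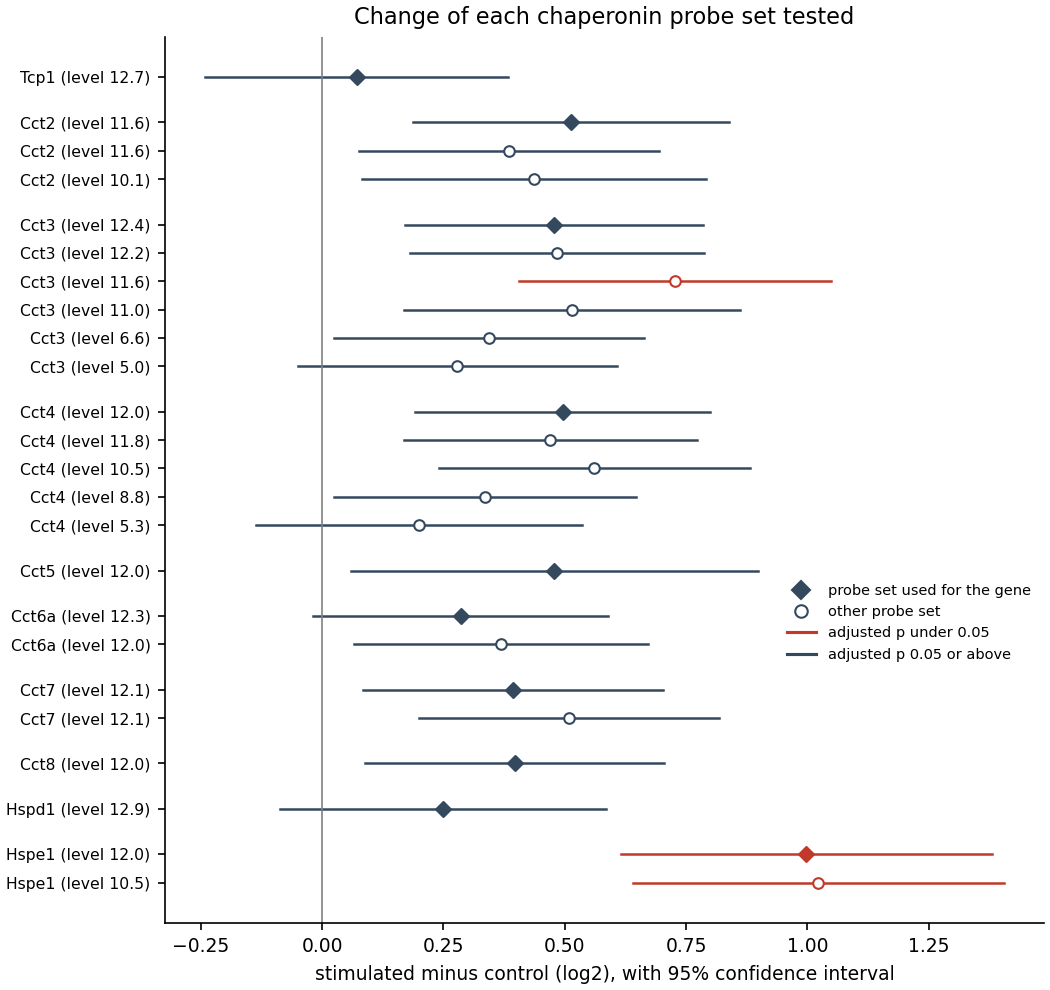
Change of each of the 24 chaperonin probe sets tested, stimulated minus control (log2, x axis), with its 95% confidence interval, grouped by gene from top to bottom and labelled with the mean signal over the 4 arrays. All 24 changes are above 0, and those with adjusted p under 0.05 over all probe sets (red) are both probe sets of Hspe1 and 1 of Cct3.

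The rule takes every probe set, and several genes had more than 1. Of the 28, 24 passed the filter, and these were tested in a second fit over all 27022 probe sets past the same level, with p adjusted over them. In that fit 3 of the 24 rose, against 2.46% of all probe sets tested, and 0 fell, against 1.38%. In 23 of the 24 both stimulated arrays lay above both control arrays, against 25.3% of all probe sets tested. Probe sets of 1 gene read the same RNA and are not independent. The median change of all probe sets tested was -0.02, and the changes of the 24 ran from 0.07 to 1.02.

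Both Hspe1 probe sets rose. The dimmer one, whose probes are of the kind meant to match a single transcript, read 10.83 and 11.16 on the stimulated arrays, against 9.96 and 9.98 on the control arrays. Its change of 1.02 ± 0.16 (adjusted p = 0.0343 over all probe sets) was close to that of the brighter one in the same fit (1.00 ± 0.16, adjusted p = 0.0350).

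Among the probe sets tested, those of Cct3 spread the most. Of its 7, 6 were tested, with changes from 0.28 to 0.73. The only one that rose read 11.96 and 12.06 on the stimulated arrays, against 11.34 and 11.22 on the control arrays (0.73 ± 0.13, adjusted p = 0.0455), and its name marks probes that match several transcripts. Below the filter, the seventh read 3.64 on both stimulated arrays, against 3.42 and 3.51 on the control arrays. The smallest changes of Cct3 belonged to its dimmest tested probe sets.

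Of the 7 probe sets of Cct4, 5 were tested, with changes from 0.20 to 0.56 and adjusted p from 0.0722 to 0.441. The other 2 lay below the filter, 1 at 4.55 and 4.61 on the stimulated arrays, against 4.09 and 3.91 on the control arrays, and 1 at 3.90 and 4.80 on the stimulated arrays, against 3.36 and 3.54 on the control arrays. All 5 tested probe sets of Cct4 kept the groups apart. The 3 of Cct2 changed by 0.39 to 0.51, the 2 of Cct6a by 0.29 and 0.37, and the 2 of Cct7 by 0.39 and 0.51. The second probe set of Cct8 was below the filter and its groups overlapped, with 3.05 and 2.96 on the stimulated arrays, against 3.10 and 2.76 on the control arrays. Tcp1, Cct5 and Hspd1 had 1 probe set each, so their values have no second reading. Of the 24 tested, 11 carry the suffix _x_at or _s_at, for probes that may match transcripts of other genes. This matters for genes with processed pseudogenes such as Hspe1. With those probe sets left out, 1 of 13 rose, the remaining one of Hspe1.

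**Figure D3:**
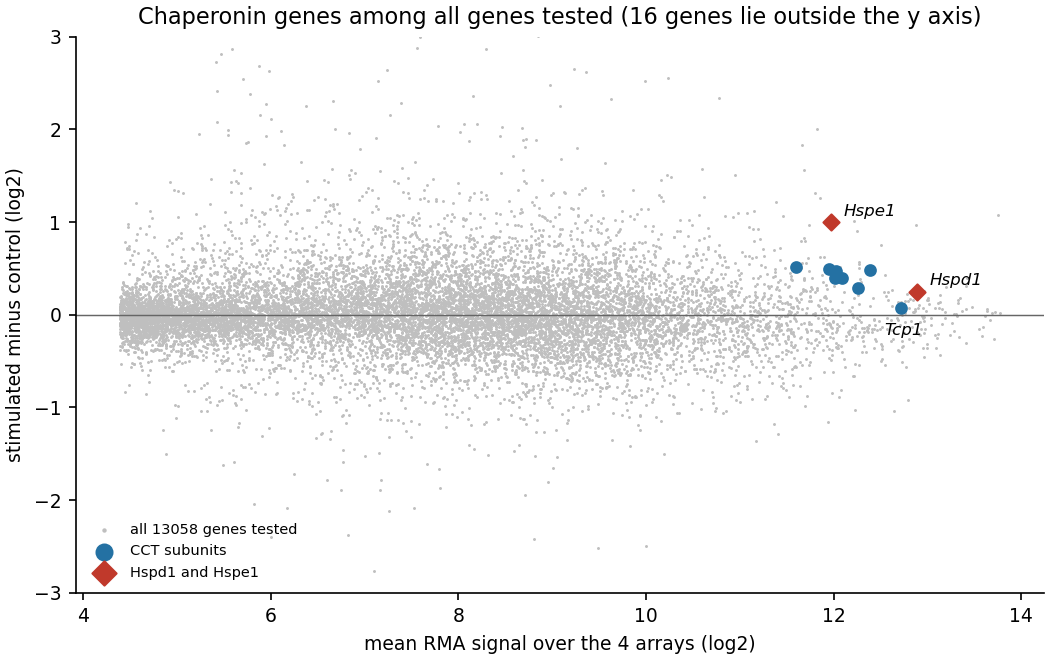
Mean signal over the 4 arrays (log2, x axis) against the change, stimulated minus control (log2, y axis), for the 13058 genes tested (grey), with the CCT subunits in blue and Hspd1 and Hspe1 as red diamonds. The chaperonins lie at the bright end, above 11.60, with changes from 0.07 for Tcp1 to 1.00 for Hspe1, and 16 genes are outside the y axis.

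The genes around the chaperonins were taken from lists written from general knowledge. Over all genes tested 3.91% rose and 1.62% fell. Prefoldin hands unfolded actin and tubulin to CCT. Of its 6 subunit genes 0 rose and 0 fell, and the median change was 0.02. The smallest p belonged to Pfdn5, which changed by -0.34 ± 0.13 (adjusted p = 0.175), and Pfdn4, which changed by 0.31 ± 0.15 (adjusted p = 0.256). Of the cofactors that bind CCT, 4 were tested and none passed (median 0.04). Among them were the phosducin-like gene Pdcl (-0.40 ± 0.20, adjusted p = 0.273, other probe set 0.10) and Txndc9 (0.37 ± 0.15, adjusted p = 0.200), whose other probe sets ran from -0.29 to 0.37. Of the 6 genes for tubulin folding cofactors, which act after CCT, 0 passed (median -0.02), with Tbca at -0.39 ± 0.16 (adjusted p = 0.211) and Tbce at 0.52 ± 0.23 (adjusted p = 0.228). The more distant chaperonin-like genes also held no call among 4 tested (median -0.14). Mkks, which helps to assemble a complex of the cilium, changed by -0.57 ± 0.23 (adjusted p = 0.195) and Cct8l1 by -0.27 ± 0.12 (adjusted p = 0.228), while Cct6b, a paralog of Cct6a expressed mainly in testis, lay below the filter.

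Of the actin and tubulin genes, whose proteins CCT folds, 16 were tested, with a median of 0.04. Of these 2 rose and 0 fell, against 3.91% and 1.62% of all genes tested. Acta1, skeletal muscle alpha-actin, rose by 3.62 ± 0.15 (adjusted p = 0.00167). Tuba4a, an alpha-tubulin, read 11.70 and 11.54 on the stimulated arrays, against 10.70 and 10.36 on the control arrays, and rose by 1.09 ± 0.16 (adjusted p = 0.0294), though its other probe sets ran from -0.04 to 0.82. The 17 genes for WD-repeat and other reported clients of CCT had a median of -0.13. Of the 17, 0 rose and 2 fell, against 3.91% and 1.62% of all genes tested. The ones that fell serve mitosis: the kinase gene Plk1 fell by 1.09 ± 0.16 (adjusted p = 0.0290), and Cdc20, an activator of the anaphase-promoting complex, fell by 0.65 ± 0.12 (adjusted p = 0.0412). None of these lists had a median near that of the CCT genes, and the differences between lists were not tested.

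In the mitochondrion the HSP70 machine draws proteins in and passes some on to HSP60. Of its 10 genes tested 0 rose and 0 fell, and the median change was 0.01. Hspa9, the mitochondrial HSP70 itself, read 12.05 and 11.91 on the stimulated arrays, against 11.43 and 11.42 on the control arrays. The groups were apart, at a change of 0.55 ± 0.12 (adjusted p = 0.0598), but its 4 other probe sets ran from -0.22 to 0.78. Grpel1, its nucleotide exchange factor, read 10.73 and 10.88 on the stimulated arrays, against 10.28 and 10.35 on the control arrays (0.49 ± 0.13, adjusted p = 0.0812). The 14 genes for mitochondrial proteases and the mitochondrial stress response had a median of 0.31. Of the 14, 3 rose and 0 fell, against 3.91% and 1.62% of all genes tested. Htra2, a protease of the intermembrane space, rose by 0.88 ± 0.12 (adjusted p = 0.0277). The others were the stress transcription factor genes Ddit3 (2.62 ± 0.13, adjusted p = 0.00221, other probe set 1.30) and Cebpb (2.33 ± 0.23, adjusted p = 0.0149), which also answer to stress outside the mitochondrion.

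The cytosolic heat shock factors and chaperones had the median closest to that of the chaperonins, 0.47 over 18 genes. All 18 had a higher mean on the stimulated arrays, against 49.1% of all genes tested. Of these 7 rose and 0 fell, against 3.91% and 1.62% of all genes tested. Of the 21 genes listed, Hsf1, Hsp90ab1 and Ppid had no probe set under that symbol alone. Heat shock factor 1 thus has no reading here. Hspa1b, an inducible HSP70 gene, rose by 5.19 ± 0.23 (adjusted p = 0.00167). Its near-identical neighbour Hspa1a read 11.44 and 12.59 on the stimulated arrays, against 3.42 and 4.05 on the control arrays. Both control values were below the filter level, and Hspa1a was tested because of its stimulated values. It is counted among the 18 and the 7 all the same. Its fitted change of 8.29 (adjusted p = 0.00178) is not a measured fold. Hsph1, which exchanges nucleotide on HSP70, rose by 2.34 ± 0.30 (adjusted p = 0.0228), and Chordc1, a partner of HSP90, rose by 1.27 ± 0.24 (adjusted p = 0.0421). Hsp90aa1, the inducible HSP90, rose by 0.97 ± 0.18 and Dnaja1, a partner of HSP70, by 0.80 ± 0.16 (adjusted p of 0.0406 and 0.0472). Hspb1, a small heat shock protein gene, stood at 14.29 on both stimulated arrays, the top of the range, against 13.26 and 13.16 on the control arrays. It rose, and its fitted change of 1.08 (adjusted p = 0.0190) may understate the difference. The 11 genes of this list that did not pass changed by 0.09 to 0.52, a range that holds every chaperonin gene but Hspe1 and Tcp1. Among them Bag3, Dnajb1, Hspa4l and Hsf2 had overlapping groups, and Hsf2 lay near the filter level, at 4.23 to 4.86.

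**Figure D4:**
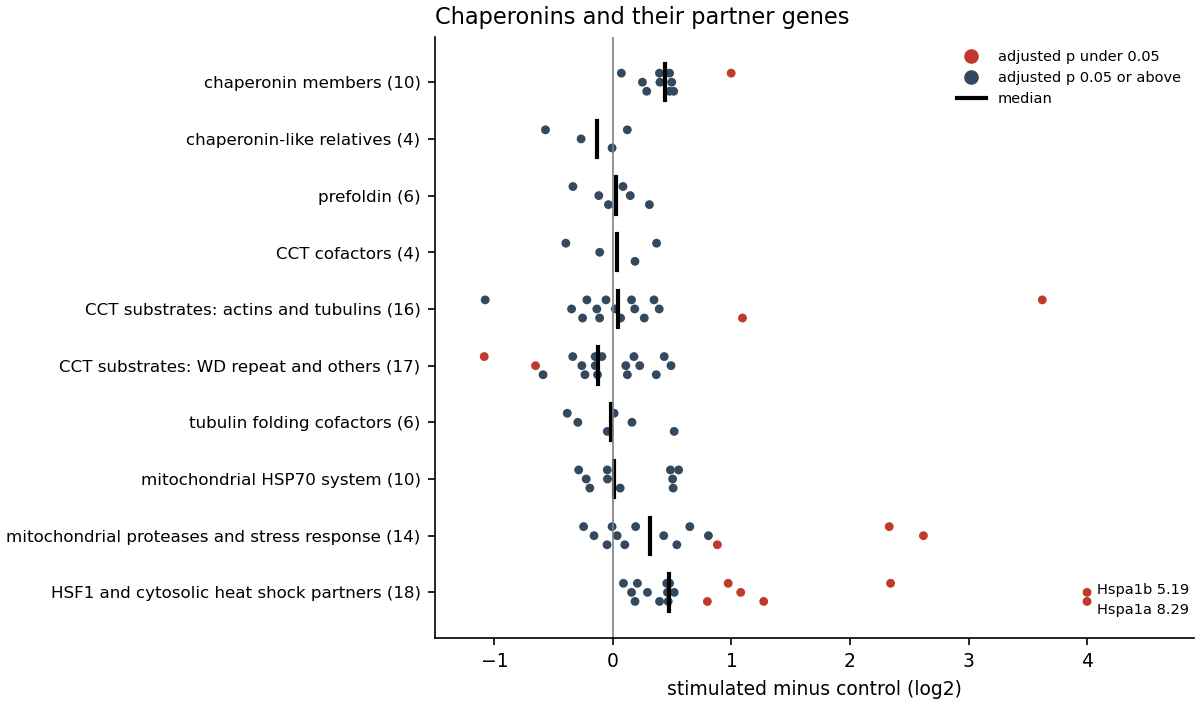
Change of each tested gene, stimulated minus control (log2, x axis), for the chaperonins and 9 lists of partner genes (rows, with the number tested), with genes of adjusted p under 0.05 in red, others dark, and the list median as a bar. Hspa1a and Hspa1b are drawn at the edge with their fitted changes. The medians of the chaperonins, 0.44, and of the heat shock partners, 0.47, lie to the right of the others.

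Likeness was measured as the Euclidean distance over the 4 arrays between genes, each set to its own mean, among 13048 other genes tested. Nearest to the mean profile of the 8 CCT genes were Kti12 (distance 0.007), Hspa8 (0.030), Pitx3 (0.031), Wipi2 (0.033) and Dusp16 (0.036), which changed by 0.38 to 0.42. Nearest to the mean of Hspd1 and Hspe1 were Klf15 (0.027), Ccdc137 (0.053), Cpeb4 (0.056), St14 (0.059) and Ifit1bl1 (0.060), which changed by 0.61 to 0.65. None of these 10 passed the test. With 4 arrays in 2 groups, such nearness describes little more than an equal change.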

How the data were processed

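Biotin-labelled RNA of 4 HL-1 samples was read on Affymetrix arrays, 1 per sample. The values the authors deposited are log2 signals from RMA, per the submitters' processing notes, and its version and settings are not given in the sources used here. Array medians were 4.95 to 5.01. Of 45037 non-control probe sets, 34945 had 1 gene symbol in the platform annotation, 932 had several and 9160 none, and 0 probe sets with several symbols held a member. Symbols were checked by gene ID against RefSeq (34741 found, 0 updated).

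Each of 18193 genes was represented by its brightest probe set, and the 13058 with a mean at or above the 40th percentile were tested with limma 3.58.1 in R 4.3.3 (lmFit, eBayes, two-sided). An exact permutation test of these groups cannot go below p = 0.333. The arrays of a group differed, with an SD of differences over genes of 0.30 between the stimulated and 0.25 between the control arrays. The number of arrays limits the precision. The fit was tested on simulated data.

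The members and lists were chosen with earlier results of these data known. Genes planned to be named from other lists were those that passed, or the 2 with the smallest p where fewer than 2 passed. Further genes were named after their values were seen. Among them are the mitochondrial genes under other observations and the heat shock genes with overlapping groups. Alternatives covered array scaling, filter, choice of probe set, variance prior, each array left out and the replicate number as a block. The motifs were chosen after the values were seen.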

Additional observations from a re-analysis of the deposited data

How the results depend on the processing

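Every one of the 10 chaperonin genes kept a change above 0 in each of the 12 alternatives run. With an intensity trend in the variance prior 4 chaperonin genes and 10 probe sets passed. That fit called 822 genes in all, 559 higher and 263 lower, against 510 higher and 212 lower without the trend. Leaving out 1 array gave 0 chaperonin genes, 0 probe sets and 20 to 113 genes in all. Leaving out probe sets with the suffix _x_at or _s_at gave 1 chaperonin probe set. Centring each array on the median of the features tested, an alternative added after seeing the data, moved the median of the 10 and of the 8 CCT genes to 0.37, left Hspe1 at 0.94 (adjusted p = 0.0295) and Tcp1 at 0.01, and gave 852 genes called, 471 higher and 381 lower, against 510 higher and 212 lower without centring. The labels give no pairing, since only the titles of the stimulated samples carry an experiment number and the control numbers follow accession order. With these numbers as a replicate block, an arbitrary pairing, 1345 genes passed in all, and again 1 chaperonin gene and 3 probe sets. The median change of the 10 genes was 0.41 to 0.45 over the other alternatives, and the mean of Hspd1 and Hspe1 was 0.51 to 0.74. The number of arrays, 2 per group, limits which changes of this size can pass. Whether signals in the upper part of the range understate their size was not tested.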

Other observations

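Several further genes of mitochondrial folding, proteolysis and stress response, chosen after their values were seen, had changes of 0.50 to 0.81 without passing the test. The largest change of a CCT gene was 0.51. Grpel2, a second exchange factor of mitochondrial HSP70, changed by 0.51 ± 0.16 (adjusted p = 0.121), and Dnaja3, its J-domain partner, by 0.50 ± 0.17 (adjusted p = 0.139). The matrix protease genes Lonp1 and Clpp changed by 0.65 ± 0.20 (adjusted p = 0.108) and 0.54 ± 0.14 (adjusted p = 0.0802). Atf5, a transcription factor of the mitochondrial stress response, changed by 0.81 ± 0.17 (adjusted p = 0.0518). Against these, Trap1, the mitochondrial HSP90, changed by -0.05 ± 0.12 and the import motor gene Timm44 by -0.19 ± 0.12. For each of these further genes only the brightest probe set was read. In all, 5 of the 10 genes of the mitochondrial HSP70 list and 4 of the 14 protease and stress genes had a change below 0.

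Of the genes that own the 8 promoter windows with a run of 4 heat shock units, 6 were tested. All 6 had a change above 0, against 49.1% of all genes tested, and 3 rose, against 3.91% of all genes tested: Kctd18 (1.11 ± 0.13, adjusted p = 0.0200), Hspe1, and Chordc1 (1.27 ± 0.24). The others were Hspd1, Arpc2 (0.18 ± 0.13, adjusted p = 0.459) and Fam149a (0.05 ± 0.16, adjusted p = 0.892). Hspe1 and Hspd1 count the same run, and they are the chaperonin members for which the run was printed. The counts are thus a description only. Of the 58 tested genes with a run of 3 units, 6 rose and 0 fell, with a median change of 0.09. Of the 1464 with at least a pair of units, the form in the Cct2, Cct5 and Cct6a windows, 65 rose and 23 fell, with a median change of 0.01. Of the 283 with the core of the amino acid response element, 24 rose and 5 fell, with a median of 0.03. Over all genes tested 3.91% rose and 1.62% fell, and the counts for the pair of units are close to these shares. A change above 0 was seen in 744 of the 1464, against 49.1% of all genes tested. The sets with 2, 3 and 4 units overlap, since longer runs contain the shorter ones. The motifs were looked for after the values were seen, and no test was made of this.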
